A study of Mus musculus with 6 samples.

Results

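The 34 genes described here encode proteins that copy DNA and divide cells, together with p21 (Cdkn1a), a protein that holds the cycle back. They were taken by symbol from a table of read counts for 54532 mouse genes. All 34 were found, and all 34 were among the 16861 genes with enough reads to be tested. The libraries are bulk RNA sequencing of polyA RNA from distal colon of mice that drank 3% (w/v) dextran sulfate sodium (DSS), a polymer of 36 to 50 kDa that injures the colon lining, over 7 days. There were 3 libraries labelled WT (WT 1 to WT 3) and 3 labelled Itgbl1 -/- (KO 1 to KO 3), and every animal received DSS, so no library shows the untreated colon. The labels name no strain, sex, age, allele design or animal identity for either group. The p-values below therefore measure the spread between these libraries.

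The cell division cycle is driven by cyclin-dependent kinases (CDKs) that are switched on in turn by cyclins. Before replication, CDC6 and CDT1 load the MCM helicase onto DNA; in S phase GINS completes the helicase and PCNA clamps the polymerases to their template. Mitosis is then run by CDK1 with cyclin B and by the Aurora and Polo-like kinases. In the colon, dividing cells sit mostly in the lower crypt, and immune and stromal cells of an inflamed wall can divide as well.

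Total counts ranged from 13326970 to 18321389 per library. Itgbl1 itself was counted at 19, 6 and 5 reads in WT 1 to WT 3 and at 12, 4 and 10 reads in KO 1 to KO 3, which is -0.19 as a log2 ratio, with a 95% interval from -2.002 to 1.625 (edgeR quasi-likelihood, adjusted p = 0.9). The counts thus show no loss of Itgbl1 reads in the libraries labelled knockout; which exons the allele removes is not stated in the labels, so reads from exons that remain cannot be told apart from an intact gene. KO 3 stood apart, with 12.8% of its counts from mitochondrial genes against 3.53 to 4.88% in the other 5 libraries, and it held almost no epithelial marker reads: Epcam, an adhesion molecule of all gut epithelium, was at 8.70 CPM there and at 164 to 2403 CPM elsewhere. The first principal component, 65.7% of the variance, placed KO 3 at 172, KO 1 at 70.5 and KO 2 at 2.47, and the WT libraries between -110 and -58. In bulk tissue, fewer cells of a type and less RNA per cell cannot be told apart.

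No gene passed an adjusted p of 0.05 between the groups (edgeR quasi-likelihood with Benjamini-Hochberg adjustment: 0 of 16861 genes, 0%), and 0 of the 34 members did. At an unadjusted p under 0.05 stood 4059 of all genes (24.1%), 2067 of them lower in the libraries labelled knockout (12.3%) and 1992 higher (11.8%). Of the 34 members, 1 did, the mitotic kinase gene Plk1, which was lower. Plk1 was also the only member whose 3 values in one group lay outside the range of the other; over all genes, 2918 (17.3%) lay wholly lower and 2533 (15%) wholly higher in the libraries labelled knockout. The members' median log2 ratio was -0.06, against 0.06 over all genes tested. Their log2 ratios were small: 29 of 34 (85.3%) lay within 0.5 of zero, against 45.6% of all genes.

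These sizes come with wide intervals. Standard errors of the members' log2 ratios ran from 0.307 to 0.631, and 33 of 34 intervals included 0. The whole 95% interval lay within a 2-fold change for 5 members (14.7%), against 19% of all genes tested. For the other members the interval reached past 2-fold in at least one direction.

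**Figure D1:**
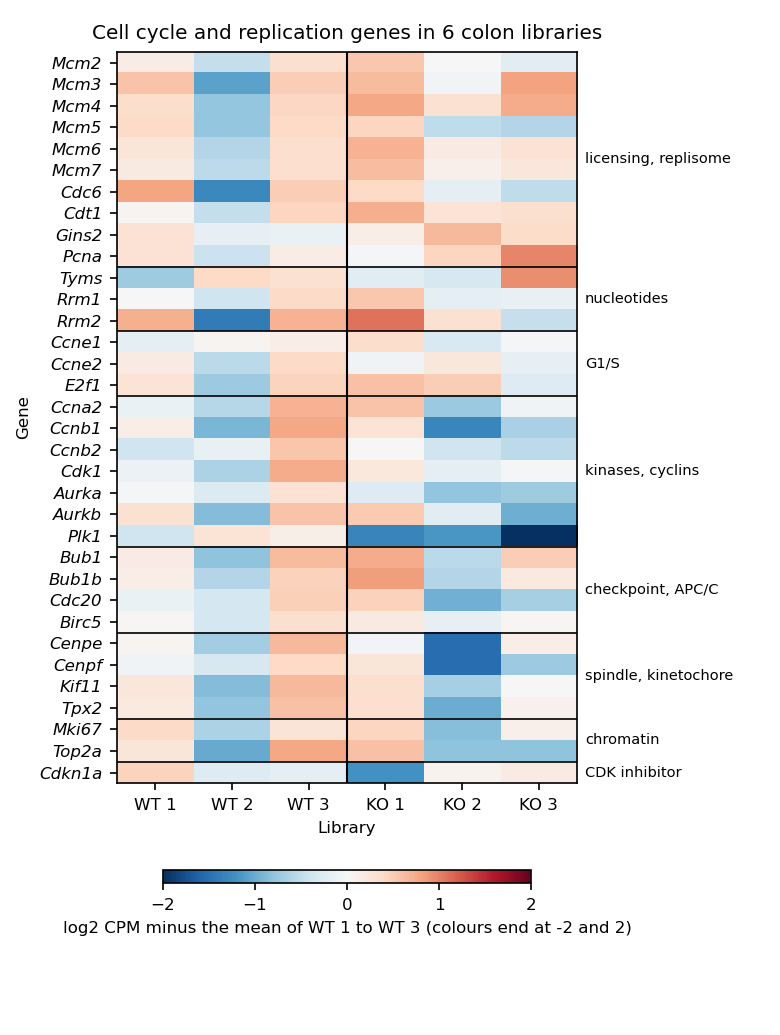
Level of each of the 34 genes in each library, as log2 CPM minus the mean of WT 1 to WT 3, with genes in rows ordered by role and colours ending at -2 and 2. WT 2 and, for the mitotic genes, KO 2 are pale to dark blue in most rows, WT 3 and KO 1 are orange in most, and Plk1 is dark blue in KO 1, KO 2 and KO 3.

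The machinery that licenses and unwinds DNA for replication was measured through 10 genes, and 8 of them had a positive log2 ratio (knockout-labelled over WT), with a median of 0.34. None passed the test; the lowest adjusted p of the group was 0.399 (edgeR quasi-likelihood). Mcm4, a subunit of the MCM helicase, was at 26.6, 12.2 and 27.8 CPM (read counts scaled to a common library total, with TMM factors) in the WT libraries, in the order 1 to 3 as in all such values here, against 35.5, 25.7 and 34.9 CPM in KO 1 to KO 3. WT 2 was the low library and the groups overlapped. Its means were 22.2 ± 8.69 and 32.0 ± 5.46 CPM (SD, n = 3 each), with a log2 ratio of 0.53 (95% interval -0.32 to 1.38). The MCM subunits form a ring of Mcm2 to Mcm7, and 5 of these 6 genes had a positive log2 ratio, with a median of 0.31. The exception was Mcm5, at -0.24, which was at 21.45 to 21.99 CPM in WT 1, WT 3 and KO 1 and between 9.49 and 11.5 CPM in the other 3 libraries.

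Pcna, the sliding clamp of the replicative polymerases, had the highest level per length of the 16 replication genes, a mean of 33.7 RPKM (CPM divided by the gene's length in kilobases) over the 6 libraries. It stood at 80.4, 48.8 and 72.6 CPM in the WT libraries and 64.1, 89.1 and 129.6 CPM in KO 1 to KO 3. KO 3 was the highest library and KO 1 lay inside the WT range. The log2 ratio was 0.49 (95% interval -0.31 to 1.28; edgeR quasi-likelihood, adjusted p = 0.407). The loading factors went separate ways: the log2 ratio was 0.41 for Cdt1 and -0.30 for Cdc6, and neither passed the test. Cdc6 was also the most variable replication gene among the WT libraries, with a 4.63-fold range from 0.949 CPM in WT 2 to 4.40 CPM in WT 1. Gins2, a GINS subunit, had a log2 ratio of 0.39, but 67.3% of its exon bases are shared with Gse1 on the opposite strand. Gse1 stood at 36.1, 45.1 and 44.6 CPM in the WT libraries and 19.5, 17.0 and 5.91 CPM in KO 1 to KO 3, and since the strand setting of the counting is not given, reads of the pair cannot be told apart.

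Genes for DNA precursors had log2 ratios between 0.07 and 0.18, and the lowest adjusted p of the 3 was 0.853 (edgeR quasi-likelihood). Tyms, thymidylate synthase, stood at 7.55, 16.5 and 15.4 CPM in the WT libraries and 10.6, 9.90 and 23.9 CPM in KO 1 to KO 3. WT 1 was its lowest library, as for no other member, and KO 3 its highest. Rrm2, the small subunit of ribonucleotide reductase, was at 16.3, 3.67 and 16.1 CPM against 21.3, 12.3 and 7.15 CPM. Its 4.44-fold range within WT was wider than the difference between the means, 12.02 ± 7.23 and 13.6 ± 7.13 CPM (SD, n = 3 each). Rrm1, the large subunit, had a log2 ratio of 0.07.

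The genes that open S phase had the median log2 ratio closest to 0, at 0.03. Ccne1, cyclin E1, stood at 5.41, 6.39 and 6.78 CPM in the WT libraries and 7.91, 4.98 and 6.06 CPM in KO 1 to KO 3, with a log2 ratio of 0.03 (95% interval -0.79 to 0.85). Its 1.25-fold range within WT was the narrowest of the members. Ccne2, cyclin E2, had a log2 ratio of -0.04, which turned to 0.10 with upper-quartile scaling. E2f1, a transcription factor that switches on replication genes, was at 5.23, 2.53 and 5.90 CPM against 6.47, 6.06 and 3.58 CPM, a log2 ratio of 0.24. WT 2 and KO 3 were its 2 low libraries.

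**Figure D2:**
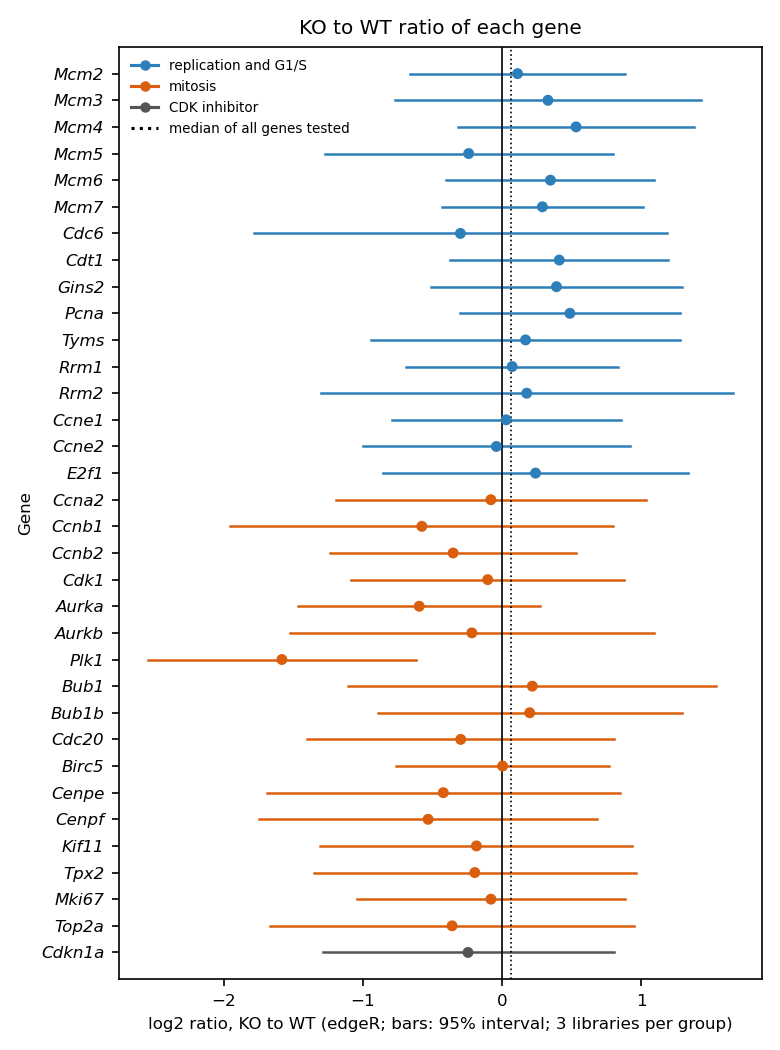
The fitted log2 ratio of each gene, libraries labelled knockout over WT, with its 95% interval (edgeR, 3 libraries per group), coloured by role, and a dotted line at the median of all genes tested. Only the interval of Plk1, from -2.54 to -0.62, leaves out 0; most replication genes lie right of 0 and most mitotic genes left of it, by less than their intervals, with Mki67, Ccna2, Cdk1 and Ccne2 moving to the right of 0 under upper-quartile scaling and Birc5 to the left under RLE scaling.

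The cyclins and kinases of mitosis had negative log2 ratios in 7 of 7 genes, with a median of -0.35; under upper-quartile scaling Ccna2 (0.06) and Cdk1 (0.04) turned positive. Plk1, Polo-like kinase 1, which drives centrosome maturation, spindle assembly and mitotic exit, stood furthest from 0 of all members. It lies on chromosome 7 at 122159439 to 122169873, plus strand. It stood at 21.3, 33.9 and 30.6 CPM in the WT libraries and 11.2, 12.5 and 4.90 CPM in KO 1 to KO 3. Every knockout-labelled library was below every WT library, with KO 3 the lowest. The means were 28.6 ± 6.52 and 9.53 ± 4.06 CPM (SD, n = 3 each), and the log2 ratio was -1.58 ± 0.41 (SE; 95% interval -2.54 to -0.62). The unadjusted p was 0.00574 and the adjusted p 0.106 (edgeR quasi-likelihood), so Plk1 did not pass. Without KO 3 the log2 ratio was -1.29. It did pass with DESeq2 (adjusted p = 0.0139), with limma-voom and quality weights (adjusted p = 0.0484) and without KO 2, fits in which 2029, 1395 and 1813 genes passed in all.

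The groups overlapped in each of the other kinase and cyclin genes. Aurka, Aurora kinase A, stood at 6.36, 5.32 and 7.90 CPM in the WT libraries and 5.39, 3.66 and 3.89 CPM in KO 1 to KO 3, where KO 1 lay just above WT 2. Its log2 ratio was -0.60 (95% interval -1.47 to 0.27; edgeR quasi-likelihood, adjusted p = 0.359). Ccnb1, cyclin B1, was at 7.85, 3.73 and 12.2 CPM against 8.60, 2.80 and 4.51 CPM. WT 2 and KO 2 were its low libraries, and its log2 ratio of -0.58 came with an interval from -1.96 to 0.80. Ccnb2, cyclin B2, had a log2 ratio of -0.35, Aurkb, Aurora kinase B, one of -0.22, and Cdk1, the kinase that pairs with cyclin B, one of -0.10. Levels of Plk1 in WT 2 also ran against the other mitotic genes: WT 2 was the highest WT library for Plk1 and the lowest WT library for 15 of the 17 mitotic members.

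Reads at the end of the Plk1 gene add a measurement to this. Ern2, which encodes a sensor of endoplasmic reticulum stress found in mucus-secreting gut epithelium, runs towards Plk1 on the opposite strand and ends 19 bases beyond the end of Plk1. Ern2 stood at 16.2, 52.1 and 28.1 CPM in the WT libraries and 0.840, 11.8 and 0 CPM in KO 1 to KO 3. Gm44985, an unclassified transcript on the same strand as Ern2, lies within Plk1 and shares 156 bases with its exons, 7.09% of the 2199 exon bases of Plk1. It was at 10.5, 27.4 and 12.9 CPM against 0.593, 8.64 and 0 CPM. Both had WT 2 as the highest library and KO 2 as the highest of the knockout-labelled ones, and Plk1 had the same highest library in each group. The strand setting of the counting is not given, and the part of these reads in the Plk1 counts was not tested. Plk1 is not alone in such an overlap: 8 of the 34 members share exon bases with another gene. Besides Gins2 they include Ccne2 (17.4% of its exon bases, with Ints8), Ccna2 (12.5%, with Exosc9) and Cdc20 (2.84%, with Elovl1), each on the opposite strand. The 6 libraries also took the same order in Plk1 as in the summed epithelial markers given further on. They took that order along the first principal component of all genes tested as well.

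**Figure D3:**
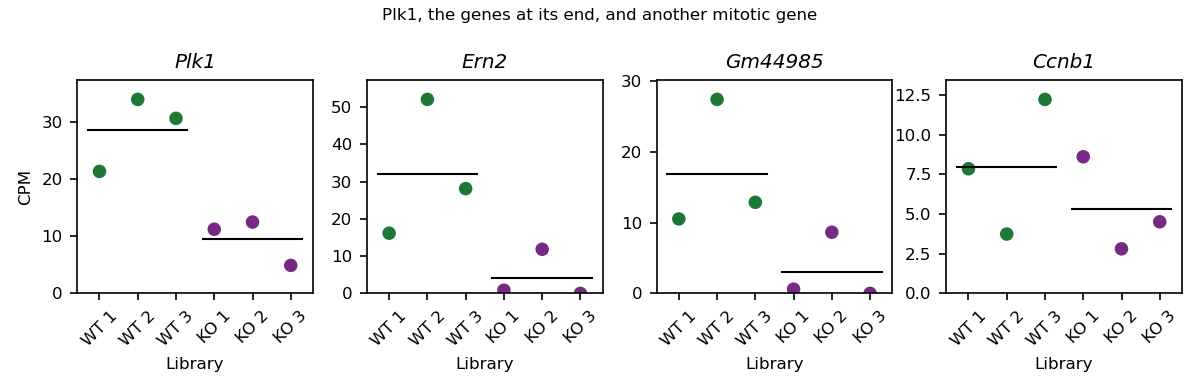
CPM of Plk1, of Ern2 and Gm44985 at its 3′ end, and of Ccnb1 in the 6 libraries, with a line at each group's mean; each panel has its own axis from 0. Plk1, Ern2 and Gm44985 are highest in WT 2 and lie wholly lower in KO 1 to KO 3, while Ccnb1 is low in WT 2 and its groups overlap.

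Mitotic genes are known to share a pair of promoter elements, the cell cycle genes homology region (CHR) and CCAAT boxes, and replication genes are known for E2F sites. To show what the mitotic kinase and cyclin genes have in common beside their values, the promoter windows of the 4 with the smallest p that had one are printed here. They are RefSeq windows of GRCm38.p6, from 250 bases before to 50 bases after the annotated start, 5′ to 3′ on the strand of the gene. Capitals mark TTTGAA or TTCGAA (CHR), CCAAT, and TTCCCGC or TTGGCGC (E2F), searched on both strands; the reverse complement of TTGGCGC overlaps a CCAAT box where the letters run together, as in Ccnb1. The windows are chr7:122159185-122159484 (plus strand) for Plk1, chr2:172370521-172370820 (minus) for Aurka, chr13:100786437-100786736 (minus) for Ccnb1 and chr9:70421505-70421804 (minus) for Ccnb2.
Plk1: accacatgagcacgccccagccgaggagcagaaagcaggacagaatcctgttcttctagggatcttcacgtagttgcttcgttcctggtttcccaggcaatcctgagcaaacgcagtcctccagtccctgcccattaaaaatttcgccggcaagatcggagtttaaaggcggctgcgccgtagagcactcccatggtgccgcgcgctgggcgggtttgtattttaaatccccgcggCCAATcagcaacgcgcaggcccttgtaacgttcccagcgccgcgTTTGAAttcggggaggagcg
Aurka: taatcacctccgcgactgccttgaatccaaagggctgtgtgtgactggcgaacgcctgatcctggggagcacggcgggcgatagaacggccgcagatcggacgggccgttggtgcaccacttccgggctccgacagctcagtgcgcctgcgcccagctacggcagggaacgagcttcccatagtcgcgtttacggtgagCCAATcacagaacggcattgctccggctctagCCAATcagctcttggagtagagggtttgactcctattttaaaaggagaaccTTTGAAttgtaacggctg
Ccnb1: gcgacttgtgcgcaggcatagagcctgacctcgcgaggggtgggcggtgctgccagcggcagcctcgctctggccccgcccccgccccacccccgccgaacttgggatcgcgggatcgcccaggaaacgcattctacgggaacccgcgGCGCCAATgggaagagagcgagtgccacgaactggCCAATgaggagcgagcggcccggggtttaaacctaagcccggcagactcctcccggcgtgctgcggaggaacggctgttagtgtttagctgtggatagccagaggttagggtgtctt
Ccnb2: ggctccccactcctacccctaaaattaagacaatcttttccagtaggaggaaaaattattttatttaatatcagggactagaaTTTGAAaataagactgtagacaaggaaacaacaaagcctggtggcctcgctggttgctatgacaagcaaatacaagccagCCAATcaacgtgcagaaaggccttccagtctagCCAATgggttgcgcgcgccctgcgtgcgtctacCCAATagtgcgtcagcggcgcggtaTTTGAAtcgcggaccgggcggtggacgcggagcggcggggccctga

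In Plk1 the CHR letters began 30 bases after the annotated start and the CCAAT box 14 bases before it. Aurka had the same arrangement with 2 CCAAT boxes, and its CHR began 32 bases after the start. Ccnb2 held CHR letters at 4 bases after and 167 bases before the start, with 3 CCAAT boxes, and the Ccnb1 window held 2 CCAAT boxes and no CHR letters. Windows were found for 28 of the 34 members (30 windows); Mcm4, Tpx2, Aurkb, Ccne2, Ccna2 and Gins2 had none. CHR letters were in 11 of 14 mitotic windows (78.6%), in 2 of 14 replication windows (14.3%) and in 19.2% of all 32851 windows. CHR and CCAAT together were in the same 11 mitotic windows and in 7.52% of all windows. E2F letters were in 8 of the 14 replication windows (57.1%), in 3 of the 14 mitotic ones (21.4%) and in 6.81% of all windows. Plk1 and Aurka both hold CHR and CCAAT letters, with the CHR at nearly the same distance from their starts. Their log2 ratios were -1.58 and -0.60, with intervals that overlapped. Over the 11 mitotic windows with both elements, log2 ratios ran from -1.58 (Plk1) to 0.22 (Bub1). The mitotic windows without CHR letters were those of Ccnb1 (-0.58), Cenpe (-0.42) and Birc5 (0.0029). A link between these letters and the ratios was not tested.

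Signs were mixed among the genes of the spindle checkpoint and chromosome separation, and none passed the test. Log2 ratios were 0.22 for Bub1 and 0.20 for Bub1b, kinases of the checkpoint that delays chromosome separation, 0.0029 for Birc5, a subunit of the chromosomal passenger complex, and -0.30 for Cdc20, the activator of the anaphase-promoting complex; Birc5 turned to -0.014 under RLE scaling. Cdc20 stood at 10.04, 8.54 and 15.4 CPM in the WT libraries and 15.1, 5.61 and 6.92 CPM in KO 1 to KO 3. KO 1 lay close to WT 3, and KO 2 and KO 3 lay below all WT libraries.

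All 4 spindle and kinetochore genes had negative log2 ratios, from -0.53 to -0.19, and the lowest adjusted p among them was 0.552 (edgeR quasi-likelihood). Cenpf, a large protein of the outer kinetochore, stood at 7.43, 6.20 and 10.3 CPM in the WT libraries and 9.19, 2.63 and 4.66 CPM in KO 1 to KO 3. Tpx2, which activates Aurora A on spindle microtubules, was at 11.9, 5.95 and 15.5 CPM against 13, 5.15 and 11.0 CPM. In both genes KO 2 was the lowest library and KO 1 lay within the WT range. The motor genes Kif11 (-0.19) and Cenpe (-0.42) had the same lowest knockout-labelled library.

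Mki67 and Top2a, the genes most used to mark dividing cells, overlapped between the labels. Mki67, which coats mitotic chromosomes, stood at 81.2, 39.8 and 73.9 CPM in the WT libraries and 83.4, 34.2 and 66.8 CPM in KO 1 to KO 3. WT 2 and KO 2 were the low libraries, and the other 4 ranged from 66.8 to 83.4 CPM. The means were 65.0 ± 22.1 and 61.4 ± 25.0 CPM (SD, n = 3 each), and the log2 ratio was -0.08 (95% interval -1.04 to 0.88; edgeR quasi-likelihood, adjusted p = 0.919), with upper-quartile scaling turning it to 0.07. Top2a, topoisomerase II alpha, was at 36.9, 15.4 and 53.4 CPM against 46.6, 17.8 and 17.9 CPM. WT 2, KO 2 and KO 3 were low alike, and its log2 ratio was -0.36 (95% interval -1.67 to 0.95).

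Cdkn1a, which encodes the CDK inhibitor p21 and is a textbook target of p53, had the highest level per length of the 34 genes, a mean of 80.6 RPKM over the 6 libraries against 33.7 RPKM for Pcna and 0.436 RPKM for Cenpf, the lowest. It was at 413 CPM in WT 1, 252 CPM in WT 2 and 266 CPM in WT 3, and at 130 CPM in KO 1, 318 CPM in KO 2 and 338 CPM in KO 3. KO 1 was its lowest library, although KO 1 was the highest knockout-labelled library for 26 of the 34 members. The log2 ratio was -0.25 (95% interval -1.29 to 0.80; edgeR quasi-likelihood, adjusted p = 0.762). The 2 RefSeq windows of Cdkn1a, at separate annotated starts, were searched for a letter pattern of the p53 response element. The pattern was 2 copies of RRRCWWGYYY (R for A or G, W for A or T, Y for C or T), with a short gap allowed. It matched in 1 of the windows and in 24 of all 32851 windows (0.0731%). That window, chr17:29090729-29091028 on the plus strand, was chosen for printing after the match was seen. The matched stretch, gap included, is in capitals and begins 73 bases before the annotated start of that window. Neighbouring letters that depart from the pattern stay in lower case, so the capitals need not be the bound element. Binding of p53 was not tested.
Cdkn1a: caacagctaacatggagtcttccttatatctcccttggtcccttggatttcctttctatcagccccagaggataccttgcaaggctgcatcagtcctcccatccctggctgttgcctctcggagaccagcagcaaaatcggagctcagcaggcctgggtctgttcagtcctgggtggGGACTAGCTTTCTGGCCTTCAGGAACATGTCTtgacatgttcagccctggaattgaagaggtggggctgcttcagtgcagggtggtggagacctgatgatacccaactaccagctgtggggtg

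Most members had the same lowest WT library and the same highest knockout-labelled library. WT 2 was the lowest WT library for 30 of the 34 members (88.2%), against 39.4% of all genes tested. WT 3 was the highest WT library for 25 members (73.5%, against 25.9%). Among the libraries labelled knockout, KO 1 was the highest for 26 (76.5%, against 33.3% of all genes) and KO 2 the lowest for 22 (64.7%, against 32.6%). KO 2 was the lowest for 14 of 17 mitotic members but for 8 of 16 replication members, of which KO 3 was the lowest for 6. As median deviations from the gene's WT mean on the log2 scale, the members lay at 0.17, -0.58 and 0.42 in WT 1 to WT 3 and at 0.41, -0.27 and -0.02 in KO 1 to KO 3. The gap between WT 2 and WT 3 was wider than the log2 ratio of any member but Plk1 between the labels.

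Replication and mitotic members lay furthest apart in KO 2. The 16 replication members had median deviations of 0.26, -0.53 and 0.38 in WT 1 to WT 3 and of 0.54, 0.14 and 0.10 in KO 1 to KO 3. The 17 mitotic members had 0.05, -0.63 and 0.56, and 0.32, -0.80 and -0.07. In KO 3 the gap between the medians was no wider than in KO 1 or WT 1. Over the labels, 13 of 16 replication genes had a positive log2 ratio (median 0.21) and 14 of 17 mitotic genes a negative one (median -0.22; -0.21 without Plk1), and under upper-quartile scaling the counts were 14 of 16 positive and 11 of 17 negative. With TMM scaling, 8954 of all 16861 genes tested had a positive log2 ratio and 7907 a negative one. Upper-quartile scaling raised the median of all genes from 0.06 to 0.21 and turned the split over all members from 16 positive and 18 negative to 20 and 14. The sign of each median turned when 1 library was left out: without WT 2 the replication median was -0.03, and without WT 3 the mitotic median was 0.06. The summed CPM of the mitotic members divided by that of the replication members was 0.804, 0.893 and 0.981 in WT 1 to WT 3 and 0.782, 0.454 and 0.519 in KO 1 to KO 3. All 3 of the latter lay below the WT libraries, KO 1 only just. Without Plk1 the ratios were 0.739, 0.716 and 0.891 against 0.752, 0.412 and 0.506, and KO 1 then lay within the WT range. Unlike the medians above, such sums weigh abundant genes most. In KO 3, Pcna gave 129.6 of the 375 replication CPM and Mki67 66.8 of the 194.8 mitotic CPM. These sums were set after earlier results were known and carry no test.

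The summed level of these genes overlapped between the labels, and the summed epithelial markers did not. The 33 members other than Cdkn1a summed to 584, 362 and 679 CPM in WT 1 to WT 3 and to 664, 438 and 570 CPM in KO 1 to KO 3, so the groups overlapped; Pcna and Mki67 had the highest CPM of the genes in this sum. The 14 epithelial markers summed to 16750, 26300 and 18860 CPM in WT 1 to WT 3 and to 1195, 8050 and 84.2 CPM in KO 1 to KO 3. Of these 14, 13 lay wholly lower in the libraries labelled knockout, against 17.3% of all genes. At an unadjusted p under 0.05, 3 were lower, against 12.3% of all genes, and none passed an adjusted p of 0.05 (edgeR quasi-likelihood). Esrp1 was at 0 in KO 3. The most abundant, Krt8, a keratin of simple epithelia, was at 3683, 7737 and 4808 CPM against 286, 2074 and 12.1 CPM. For each 1000 CPM of epithelial markers there were thus 34.8, 13.7 and 36.0 CPM of members in WT 1 to WT 3 and 556, 54.4 and 6760 CPM in KO 1 to KO 3. WT 2 had the highest epithelial sum and the lowest member sum, and KO 3 had almost no epithelial marker reads and a member sum inside the WT range. Plk1 did not share the pattern of the sum: its CPM put the 6 libraries in the same order as the epithelial sum, from KO 3, KO 1 and KO 2 up to WT 1, WT 3 and WT 2. The first principal component, 65.7% of the variance over all genes tested, also put the libraries in this order. The order is thus not particular to Plk1 and the epithelial markers, and the share of all genes that follow it was not counted. The part of epithelial content in the Plk1 counts was not tested.

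**Figure D4:**
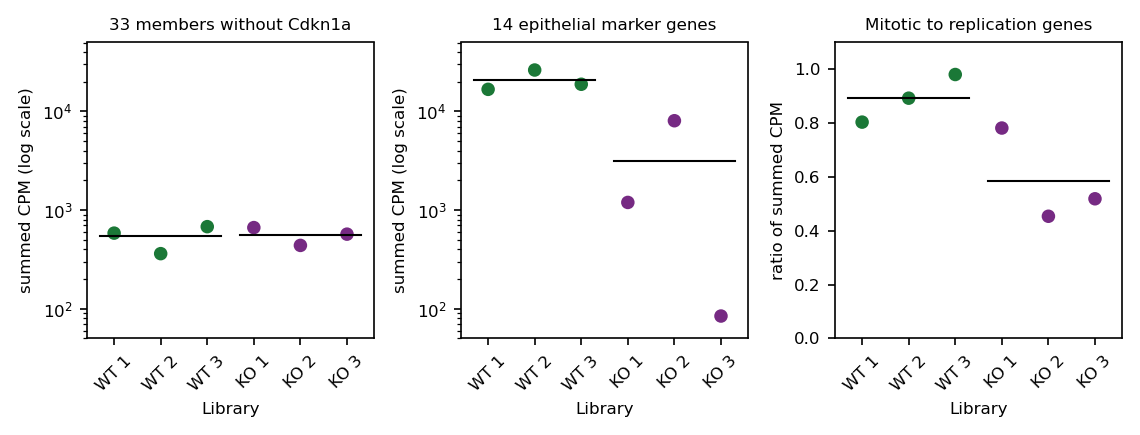
Summed CPM of the 33 members without Cdkn1a (left, log axis), summed CPM of the 14 epithelial markers (middle, same log axis) and the ratio of summed mitotic to summed replication CPM (right, linear axis from 0) in each library, with lines at group means. The member sums lie between 362 and 679 CPM in both groups, the epithelial sums between 16750 and 26300 CPM in WT and between 84.2 and 8050 CPM in the libraries labelled knockout, and the ratio is lowest in KO 2 and KO 3.

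Markers of other cells of the colon wall also differed between the libraries. The 9 neutrophil markers summed to 442, 11.1 and 56.0 CPM in WT 1 to WT 3 and to 1368, 1245 and 7397 CPM in KO 1 to KO 3. Of the 9, 8 lay wholly higher, against 15% of all genes. Markers of early granulocytes, the dividing precursors, were near 0, at 0.696 to 2.02 CPM in WT and 2.29 to 4.97 CPM in the libraries labelled knockout, and Elane and Ms4a3 were at 0 in all 3 WT libraries. All 8 fibroblast markers and all 7 endothelial markers had positive log2 ratios, with sums of 1526 to 2642 and 4299 to 7032 CPM for fibroblasts, and of 188 to 366 and 347 to 1228 CPM for endothelium. The fibroblast sums did not overlap between the labels, and the endothelial sums did. The 10 crypt base markers, the compartment of the intestinal stem cells, summed to 239 to 385 CPM in WT and 195 to 279 CPM in the libraries labelled knockout. Of these, 9 were tested, with log2 ratios from -3.11 to 2.55. At an unadjusted p under 0.05, 4 were lower and 1 higher (edgeR quasi-likelihood), against 12.3% and 11.8% of all genes. Wholly lower lay 3 and wholly higher 1, against 17.3% and 15% of all genes, and none passed an adjusted p of 0.05. B and plasma cell markers summed to 1285 to 1464 CPM in WT and 562 to 2813 CPM in the others, highest in KO 1, and T and NK cell markers to 67.0 to 134 and 48.4 to 134 CPM. The sums of these 3 lists overlapped between the labels. Erythroid markers summed to 51.2 to 162 and 163 to 2651 CPM, glial and neuronal markers to 86.0 to 159 and 248 to 892 CPM, smooth muscle markers to 3129 to 4576 and 1531 to 5339 CPM, and macrophage markers to 478 to 1014 and 267 to 1007 CPM. The part of any of these cells in the levels of the members was not tested.

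No gene of the wider lists of the same pathways passed an adjusted p of 0.05 (edgeR quasi-likelihood). Of 50 further replication genes, 32 had a positive log2 ratio, with a median of 0.16. Over all 16861 genes tested, 8954 log2 ratios were positive and 7907 negative. At an unadjusted p under 0.05 (edgeR quasi-likelihood), 4 of the 50 stood higher and 1 lower, against 11.8% and 12.3% of all genes. Of the 50, 8 lay wholly higher and 2 wholly lower in the libraries labelled knockout, against 15% and 17.3% of all genes. Orc2 and Orc6, subunits of the origin recognition complex that marks where replication starts, were among the 4. Orc2 stood at 12.7, 8.67 and 10.9 CPM in the WT libraries and 18.7, 17.2 and 32.1 CPM in KO 1 to KO 3, with a log2 ratio of 1.08 (adjusted p = 0.134, edgeR quasi-likelihood), and that of Orc6 was 1.03. Tipin, a protein that steadies stalled forks, had a log2 ratio of 1.22. Named after their values were seen, Mcm8 had a log2 ratio of 1.36 and Gmnn, which encodes the re-licensing inhibitor geminin, one of -0.72. Of 59 further mitotic genes, 34 lay below 0, and the median of their log2 ratios was -0.15. Spc25, of the NDC80 kinetochore complex, had a log2 ratio of -1.21. That of Bub3, of the spindle checkpoint, was 0.56 and that of Ube2s, an enzyme of the anaphase-promoting complex, 0.59. These were the 3 of 59 at an unadjusted p under 0.05, against 24.1% of all genes. Of the 59, 4 lay wholly lower and 2 wholly higher, against 17.3% and 15% of all genes.

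Among the regulators of entry into the cycle, log2 ratios ran from -1.96 to 0.775. The members ran from -1.58 to 0.531 and all genes tested from -11 to 10.6. Of 29 genes of the RB, E2F and cyclin D system, 5 stood at an unadjusted p under 0.05. All 5 were lower in the libraries labelled knockout, while the median of the list was -0.06. A share of 5 in 29 is no higher than the 24.1% of all genes in both directions. On the lower side alone stood 12.3% of all genes. Of the 29, 6 lay wholly lower and 3 wholly higher, against 17.3% and 15% of all genes. Rbl1, the pocket protein p107, stood at 28.6, 31.2 and 32.5 CPM in the WT libraries and 10.5, 11.2 and 7.85 CPM in KO 1 to KO 3. The groups were far apart and each was narrow, with a log2 ratio of -1.64 (95% interval -2.25 to -1.04; edgeR quasi-likelihood, adjusted p = 0.094, which was also the lowest of any gene tested). Ccnd2, cyclin D2, was at 103, 292 and 307 CPM against 93.4, 52.1 and 34.4 CPM, a log2 ratio of -1.96 (adjusted p = 0.114, edgeR quasi-likelihood). Cdc25a, the phosphatase that releases CDK2, had a log2 ratio of -1.04. Named after their values were seen, the other 2 were Ccnd1, cyclin D1 (-1.59), and Pkmyt1, a kinase that inhibits CDK1 (-0.98). Ccnd3, cyclin D3, also named after its values were seen, was at 99.0, 84.2 and 93.1 CPM against 118, 113 and 99.2 CPM.

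Of the 7 other CDK inhibitor genes, 6 were tested, and Cdkn2a, with 2 to 13 reads per library, was not. Cdkn2b, which encodes p15, an inhibitor of CDK4 and CDK6, stood at 28.3, 58.9 and 39.5 CPM in the WT libraries and 1.73, 13.4 and 1.17 CPM in KO 1 to KO 3. Its log2 ratio was -2.95 (95% interval -5.17 to -0.73; edgeR quasi-likelihood, adjusted p = 0.137). Cdkn2d, which encodes p19, ran the other way, at 27.04, 13.7 and 17.2 CPM against 33.95, 29.9 and 99.5 CPM, with KO 3 the highest. Cdkn1c, which encodes p57, had a log2 ratio of 0.69. Of 24 p53 targets, 5 stood higher at an unadjusted p under 0.05 and 1 lower, against 11.8% and 12.3% of all genes. Only both directions together came close to the share of all genes, 24.1%. Of the 24, 5 lay wholly higher and 2 wholly lower, against 15% and 17.3% of all genes. Sesn1, a stress-induced regulator of growth signalling, stood at 27.6, 22.3 and 27.4 CPM in the WT libraries and 80.7, 57.3 and 56.7 CPM in KO 1 to KO 3, with a log2 ratio of 1.33 (adjusted p = 0.094, edgeR quasi-likelihood). Plk2, a Polo-like kinase outside the mitotic members, had a log2 ratio of 1.87, and Perp, a desmosome-linked membrane protein of epithelia, one of -2.62. The other 3 on the higher side, also picked out by their values, were Phlda3 (1.02), Eda2r (1.59) and Bax (0.70), and Cdkn1a itself was at -0.25.

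**Figure D5:**
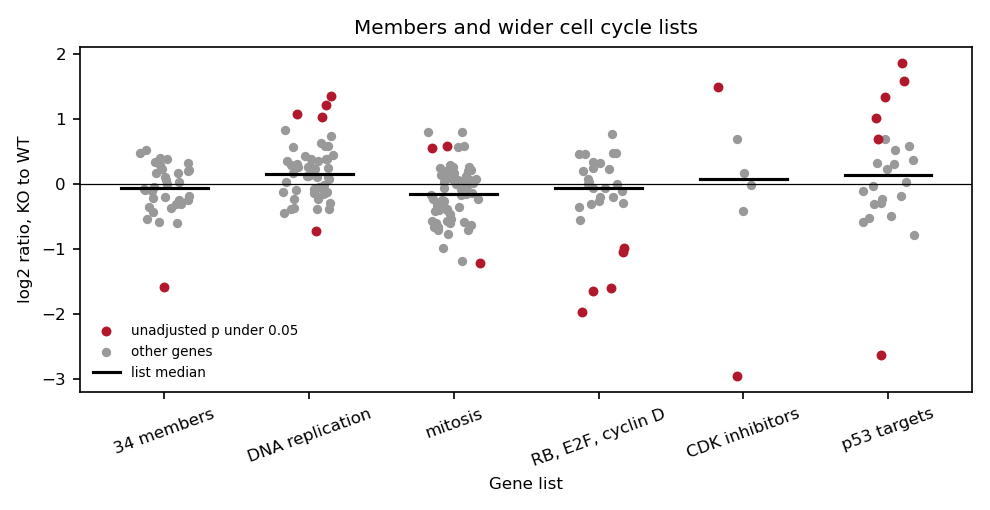
Fitted log2 ratio (libraries labelled knockout over WT) of the 34 members and of every tested gene in 5 wider lists, with a bar at each list's median; red points are at an unadjusted p under 0.05. The members hold 1 red point, Plk1 at -1.58, and the RB, E2F and cyclin D list holds 5, all below 0; medians lie between -0.15 and 0.16.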

How the data were processed

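Per the labels' protocols, mRNA was bound with poly-T beads and primed with random hexamers, and fragments of 370 to 420 bp were selected; all 6 libraries carry 1 batch date. The deposited values are whole-number read counts per gene, made by the authors. The submitters' processing notes list, without roles, the builds GRCm38 and mm10 and the tools featureCounts 1.5.0-p3, HISAT2 2.0.5, DESeq2 and StringTie 1.3.3b. Neither the strand setting nor the annotation release nor the handling of multi-mapping reads is given in those notes or labels. From the counts, genes were filtered (filterByExpr, minimum count 10, minimum total 15), scaled by TMM and tested with edgeR 4.0.16 (robust quasi-likelihood, Benjamini-Hochberg over all 16861 genes tested) in R 4.3.3; limma 3.58.1 and DESeq2 1.42.0 gave alternatives. CPM use TMM library sizes, log2 CPM a prior count of 2, and RPKM the length column of the table. Interval level was 95%. No pair of libraries of a group agreed within counting noise. Promoter windows came from RefSeq (GRCm38.p6) and gene overlaps from GENCODE M21 (GRCm38), which gave the deposited coordinates for all 34 members. The members and lists were chosen with earlier results of these data known. Given in full were, in each role, the member with the smallest p and that with the highest level per length, with Cdkn1a, Mki67 and Pcna; from each wider list, the 3 genes with the smallest p; from each marker list, its sum and at most 2 abundant genes. Other scalings, filters and tests, a replicate block, gene subsets and leaving out each library were tried.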

Additional observations from a re-analysis of the deposited data

How the results depend on the processing

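The count of genes passing an adjusted p of 0.05, 0 of 16861 with edgeR's quasi-likelihood test (4059 at an unadjusted p under 0.05), was 192 with no filter on low counts, 2029 with DESeq2, 1395 with limma-voom and quality weights and 3 with the replicate number as a block, and ranged from 0 to 1813 when each library was left out, 1813 being without KO 2. The count of members was 1 with DESeq2 and 1 with quality weights, Plk1 each time, and ranged from 0 to 1 when each library was left out (1 without KO 2); Plk1 was the only member at an unadjusted p under 0.05 in every setting run. The members' median ranged from -0.34 without WT 2 to 0.17 without WT 3. Same-numbered libraries correlated at -0.20, 0.09 and -0.08 in their deviations from the group means, and not every library correlated best with its own number. With 3 libraries per group, such values cannot decide whether the numbers pair the libraries, and the labels do not say. With the replicate block 0 members passed, and Cdk1 turned to 0.0063. Of 544 log2 ratios of members over all alternatives, 54 changed sign, none of them of Plk1, and the cause was not tested. Birc5 (0.0029) turned to -0.014 with RLE scaling, -0.055 with no filter, -0.0033 with at least 10 reads in every library, -0.027 with DESeq2, -0.12 with quality weights and -0.017 without mitochondrial and immunoglobulin genes. Under upper-quartile scaling Ccna2 became 0.063, Ccne2 0.097, Cdk1 0.037 and Mki67 0.070. With limma-voom Ccne2 became 0.00057 and Cdk1 0.0020, and with quality weights Bub1 became -0.0095 and Tyms -0.19. Ccne1 became -0.030 with no filter and -0.00017 with DESeq2. With each library left out, log2 ratios ranged over 0 in 20 members: Aurkb from -0.67 to 0.064, Birc5 from -0.19 to 0.17, Bub1 from -0.14 to 0.57, Bub1b from -0.21 to 0.44, Ccna2 from -0.47 to 0.34, Ccne1 from -0.16 to 0.13, Ccne2 from -0.30 to 0.15, Cdc6 from -0.76 to 0.063, Cdk1 from -0.41 to 0.36, Cdkn1a from -0.48 to 0.085, E2f1 from -0.080 to 0.46, Kif11 from -0.55 to 0.16, Mcm2 from -0.13 to 0.26, Mcm3 from -0.075 to 0.55, Mki67 from -0.38 to 0.16, Rrm1 from -0.20 to 0.28, Rrm2 from -0.29 to 0.45, Top2a from -0.98 to 0.061, Tpx2 from -0.54 to 0.11 and Tyms from -0.38 to 0.36. The number of libraries, 3 per group, and the low counts of Cdc6, Bub1 and Gins2 limit what could be detected.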
